A study of Mus musculus with 4 samples.

Results

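Axon guidance ligands and receptors were followed through 4 RNA-Seq libraries of HT-22 cells. The genes were taken by symbol: semaphorins, plexins, neuropilins, ephrins, Eph receptors, Slits, Robos, netrins, the Unc5 family, Dcc, Neo1 and the Dpysl family of collapsin response mediator proteins. In GENCODE release M21, 79 symbols matched this rule, and 37 of them had values, out of 11502 gene symbols with values in all. These 37 genes were represented by 74 transcripts. FPKM is fragments per kilobase of transcript, scaled to the mapped reads of the library, and so a level per length. Of the 37, 34 had a mean level of at least 1 FPKM over the 4 libraries and were compared. Efna2, Plxnb1 and Sema6d were below that mean. The other 39 protein-coding symbols, among them Nrp1, Ntn1, Dcc, Robo1 to Robo4, Sema3a and Dpysl3, had no row used here, and nothing is said of their levels. The remaining 3 symbols, Plxna4os1 to Plxna4os3, are noncoding and had no row used here either. Unc50 matched only because its name begins with the same letters as Unc5. It is a Golgi protein and no netrin receptor, and it was kept because the rule takes it.

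HT-22 is a line of immortalized neurons from the mouse hippocampus. The Ctrl cells carried a negative control lentivirus, and the PGC-1α cells a lentivirus that overexpresses PGC-1α, the transcriptional coactivator encoded by Ppargc1a that drives mitochondrial biogenesis. Both were selected with puromycin, and the promoter of the construct is not given in the sources used here. In Ctrl+OGD and PGC-1α+OGD, the same cells received oxygen and glucose deprivation (OGD) for 2 h without serum, and were then kept in normal medium for 24 h. Each of the 4 groups has 1 library, so no difference has a replicate check and no test was made. Every "higher" or "lower" compares 2 libraries, not 2 conditions. Where 4 values follow each other, the order is Ctrl, PGC-1α, Ctrl with OGD and PGC-1α with OGD.

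Axon guidance molecules steer growing neurites by attraction and repulsion at the growth cone. Secreted class 3 semaphorins bind neuropilins, which signal through plexins, whereas most membrane-bound semaphorins bind plexins directly. Ephrins bind Eph receptor tyrosine kinases on neighbouring cells and can signal back into their own cell. Netrins act through Dcc, neogenin (Neo1) and the Unc5 receptors, Slits through Robo receptors, and collapsin response mediator proteins carry semaphorin signals to the cytoskeleton. In the hippocampus these systems help to lay out its fibre tracts and synapses.

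The overexpressed gene followed the labels. Without OGD, Ppargc1a was at 0.900 FPKM with the control virus and 35.1 FPKM with the PGC-1α virus, and after OGD at 0.103 and 8.41 FPKM. The 2 PGC-1α libraries thus differed in the level of the overexpressed gene, by -1.94 on the log2(FPKM + 1) scale with OGD. PGC-1α differences without and with OGD are therefore not at the same level of overexpression. The markers of the labelled cell type, hippocampal neurons, were mostly without values. Of 15 neuronal marker genes, 2 had values, Syp at 0.258 to 0.997 FPKM and Eno2 at 0.410 to 2.81 FPKM. All 5 fibroblast markers had values, with Col1a2 at 236 to 265 FPKM and Col1a1 at 156 to 198 FPKM. Of 5 markers each, 2 had values for astrocytes, 2 for microglia and 1 for oligodendrocytes, and 0 of 4 for endothelium. The reads behind each library are unknown, so the precision of a single value cannot be given.

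For several guidance genes the libraries differed in which transcript carried the signal, and in Unc5a, Unc5b and Slit2 the transcripts that replaced each other differ by short coding stretches, in Unc5b and Slit2 beside longer noncoding ones. Ephb4 is shown because the share of its stretch was lowest in Ctrl, and Nrp2 because it had the highest level. The sequences below were taken from the GENCODE M21 transcripts on GRCm38. Capitals mark the stretch that differs, and the lower-case letters are the 12 bases on either side of it in the transcript. The Unc5a stretch lies at chr13:54997193-54997360 on the + strand and has 168 bases. The Unc5b stretch of 33 bases lies at chr10:60777185-60777217 on the - strand. Slit2 has a stretch of 12 bases at chr5:48191003-48191014 and one of 24 bases at chr5:48220967-48220990, both on the + strand. The 27 bases of Ephb4 lie at chr5:137362363-137362389 and the 15 bases of Nrp2 at chr1:62786302-62786316, both on the + strand. Each stretch is a whole number of codons and is coding in the transcripts that hold it.
Unc5a: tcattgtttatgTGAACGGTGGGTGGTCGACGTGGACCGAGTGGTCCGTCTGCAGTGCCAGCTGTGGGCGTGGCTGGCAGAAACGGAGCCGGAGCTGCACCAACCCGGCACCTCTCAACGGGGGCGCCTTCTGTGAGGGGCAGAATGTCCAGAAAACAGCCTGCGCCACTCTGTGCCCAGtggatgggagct
Unc5b: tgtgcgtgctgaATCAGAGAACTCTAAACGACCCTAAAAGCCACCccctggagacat
Slit2, first stretch: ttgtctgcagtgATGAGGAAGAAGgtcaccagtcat
Slit2, second stretch: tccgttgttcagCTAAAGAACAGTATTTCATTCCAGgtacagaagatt
Ephb4: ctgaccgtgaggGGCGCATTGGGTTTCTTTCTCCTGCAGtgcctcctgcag
Nrp2: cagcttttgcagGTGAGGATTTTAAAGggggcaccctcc

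Receptors of semaphorins were the most abundant group. Nrp2 (chr1:62703285-62818695, + strand), a neuropilin that binds class 3 semaphorins and VEGF-C, had the highest mean of all guidance genes with values (63.0 FPKM). It was at 78.7 FPKM in Ctrl and 66.0 in PGC-1α without OGD, and 52.1 and 55.2 after it, so both OGD libraries lay below both libraries without OGD. The difference of Ctrl+OGD from Ctrl was -0.59 on the log2(FPKM + 1) scale, just past the 1.5-fold limit of 0.58 that was used to count a gene as higher or lower. It was inside that limit after either rescaling of the libraries, at -0.53 and -0.57. With PGC-1α the OGD difference was -0.25. In bulk RNA, fewer cells with a transcript and less of it per cell cannot be told apart.

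Plexins, the signalling receptors of semaphorins, were also highest without OGD for most members. Plxnb2, a receptor of class 4 semaphorins, was at 59.2 FPKM in Ctrl, 53.7 in PGC-1α, 49.5 in Ctrl after OGD and 49.6 in PGC-1α after OGD. Plxnd1, a receptor of Sema3e in vessel and axon patterning, was at 28.9, 25.7, 22.9 and 23.7 FPKM in the same order of libraries. Plxna1, which signals with neuropilins, was at 29.3, 22.7, 24.1 and 22.4 FPKM. All 6 compared plexins were lower in Ctrl+OGD than in Ctrl, and 5 were lower in PGC-1α than in Ctrl, with Plxna2 as the exception (3.85 FPKM in Ctrl and 4.59 in PGC-1α). The summed level of the plexins was 129 FPKM in Ctrl and 111 in PGC-1α without OGD, and 105 and 103 after it. Plxna3 had the largest difference among them, at 4.31 FPKM in Ctrl, 2.22 in PGC-1α, 2.75 in Ctrl after OGD and 2.40 in PGC-1α after OGD. Its log2 difference of PGC-1α from Ctrl was -0.72, and that of PGC-1α+OGD from Ctrl+OGD was -0.14. Plxnc1, the receptor of Sema7a, ranged from 1.59 to 2.86 FPKM and Plxnb1 from 0.346 to 0.590 FPKM, both highest in Ctrl.

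The ligands of these receptors did not share 1 order. Sema6b (chr17:56123085-56140343, - strand), a transmembrane semaphorin that binds A-type plexins, was at 6.91 FPKM in Ctrl and 14.2 in PGC-1α without OGD, and 12.8 and 12.7 after it. Ctrl alone was low, and the other 3 libraries lay close together. The log2 difference was 0.95 for PGC-1α and 0.80 for Ctrl+OGD, each against Ctrl, so both rest on the same Ctrl library. It was -0.01 for PGC-1α+OGD vs Ctrl+OGD and -0.15 for PGC-1α+OGD vs PGC-1α. Sema6b stood at the 98.3 percentile of all compared genes in the first comparison.

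Secreted class 3 semaphorins were highest in PGC-1α for 3 of the 4 genes with values. Sema3c, a guidance cue of neural crest and cortical axons, was at 6.52 FPKM in Ctrl, 10.9 in PGC-1α, 8.14 in Ctrl after OGD and 8.82 in PGC-1α after OGD. Its log2 difference was 0.67 for PGC-1α vs Ctrl without OGD, and 0.10 with it. Sema3f, which repels hippocampal axons through Nrp2, was at 15.8, 20.3, 11.1 and 13.9 FPKM in the same order. For Sema3f the PGC-1α library was higher than its control without OGD (0.34) and with OGD (0.30), and the OGD library was lower in Ctrl cells (-0.48) and in PGC-1α cells (-0.52), all inside the 1.5-fold limit. Sema3b was at 7.13, 7.72, 6.06 and 4.90 FPKM, with an OGD difference of -0.56 in PGC-1α cells. Sema3g was at 2.08 FPKM in Ctrl against 1.64 in PGC-1α, with nearly the latter value in both OGD libraries. The summed level of the class was 31.5 FPKM in Ctrl and 40.6 in PGC-1α without OGD, and 26.9 and 29.2 after it.

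Sema5a (chr15:32244810-32696341, + strand), a transmembrane semaphorin with thrombospondin repeats, went the other way from Sema6b. It was at 6.74 FPKM in Ctrl, 3.45 in PGC-1α, 6.72 in Ctrl after OGD and 4.92 in PGC-1α after OGD. Both PGC-1α libraries lay below both Ctrl libraries, with log2 differences of -0.80 without OGD and -0.38 with OGD. Among the other membrane-bound semaphorins, Sema4a was the one with a higher level in both OGD libraries, at 0.910 FPKM in Ctrl and 0.995 in PGC-1α without OGD, and 1.74 and 1.97 after it. Its OGD differences of 0.52 and 0.57 fell short of the limit, but were 0.87 and 0.92 with a pseudocount of 0.1, and the second was 0.59 after upper quartile scaling. Of its transcripts, the full-length ENSMUST00000029700 was at 0.283, 0.0995, 1.09 and 0.160 FPKM. Most of the level in PGC-1α+OGD was ENSMUST00000123753, of 385 bases with 53 coding, at 1.81 FPKM. Sema7a, a lipid-anchored semaphorin that promotes axon growth, was at 3.02 FPKM in Ctrl and 3.10 in PGC-1α, and at no more than 2.13 FPKM in either OGD library. Sema4c was at 7.39, 6.42, 5.25 and 5.22 FPKM. Sema4b ranged from 8.66 to 10.6 FPKM and Sema6d from 0.437 to 1.15 FPKM, and all 3 were highest in Ctrl.

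Ephrin-B ligands were lower in the OGD libraries. Efnb1, a transmembrane ephrin, came after Nrp2 and Plxnb2 in mean level and was at 56.5 FPKM in Ctrl, 52.9 in PGC-1α, 43.1 in Ctrl after OGD and 42.5 in PGC-1α after OGD. Efnb2 (chr8:8617434-8661242, - strand), the partner of Ephb4 in vessels and a ligand of neuronal Eph receptors, was at 21.4, 16.0, 12.6 and 13.1 FPKM. Its log2 difference of Ctrl+OGD from Ctrl was -0.72, the lowest of all 34 genes in that comparison, and in PGC-1α cells the OGD difference was -0.27. The sum of Efnb1 and Efnb2 was 77.9 FPKM in Ctrl and 68.9 in PGC-1α without OGD, and 55.7 and 55.6 after it.

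Among the ephrin-A ligands, Efna5 had the same order of libraries as Efnb2, and Efna1 and Efna4 did not. Efna5, a repellent in topographic mapping, was at 18.6 FPKM in Ctrl and 16.8 in PGC-1α, and after OGD at 14.0 and 14.6, and Efna1 was at 12.6, 11.5, 12.2 and 11.0 FPKM, with log2 differences between -0.13 and -0.05 in the 4 comparisons. Efna4 was at 4.78 FPKM in Ctrl, 6.80 in PGC-1α, 6.60 in Ctrl after OGD and 5.13 in PGC-1α after OGD, so PGC-1α alone and OGD alone had the higher values, and the library with both lay nearer to Ctrl. Efna2 lay between 0.729 and 1.03 FPKM.

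The EphB receptors with values differed from each other. Ephb4 was at 9.65 FPKM in Ctrl and 10.2 in PGC-1α without OGD, and 13.9 and 12.2 after it, higher in both OGD libraries than in either library without OGD. Its log2 differences of 0.48 in Ctrl cells and 0.23 in PGC-1α cells were inside the limit. With the highest Ephb4 transcript in place of the sum, Ctrl+OGD vs Ctrl was 1.10 and PGC-1α vs Ctrl was 0.79, both past it. Ephb3 was at 5.66, 5.81, 4.50 and 4.91 FPKM and so was lower in both OGD libraries. Epha2, which binds ephrin-A1, was at 11.6, 10.7, 13.1 and 10.7 FPKM. Epha8 was at 1.27 FPKM in Ctrl, 0.499 in PGC-1α, 1.19 in Ctrl after OGD and 1.09 in PGC-1α after OGD. Its log2 difference of -0.60 for PGC-1α vs Ctrl sits at a level near 1 FPKM and became -0.57, inside the limit, after upper quartile scaling.

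Slits and netrins were represented by 2 and 1 genes. Slit2, a repellent that acts through Robo receptors, was at 9.06 FPKM in Ctrl and 8.02 in PGC-1α without OGD, and 8.59 and 10.1 after it. Slit1 was low, at 1.64 FPKM in Ctrl, 1.10 in PGC-1α, 1.44 in Ctrl after OGD and 0.605 in PGC-1α after OGD, and gave the 1 call between the OGD libraries, a log2 difference of -0.60 for PGC-1α+OGD vs Ctrl+OGD. Ntn5, a small member of the netrin family, was at 8.89 FPKM in Ctrl, 6.58 in PGC-1α, 5.32 in Ctrl after OGD and 5.00 in PGC-1α after OGD, with an OGD difference of -0.65 in Ctrl cells and -0.34 in PGC-1α cells. Ntn5 shares 519 exonic bases (23.4%) with Sec1 on the opposite strand, and whether reads were counted by strand is not stated.

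All 3 netrin receptors with values were lower in Ctrl+OGD than in Ctrl. Neo1, which binds netrins and repulsive guidance molecules, was at 23.9 FPKM in Ctrl and 17.5 in PGC-1α without OGD, and 20.7 and 18.8 after it. Unc5b, a dependence receptor that can trigger cell death without netrin, was at 21.7, 18.3, 15.7 and 20.4 FPKM. For Unc5b the OGD difference was -0.45 in Ctrl cells and 0.15 in PGC-1α cells, and PGC-1α+OGD was the higher of the 2 OGD libraries (0.36). Unc5a was at 13.5, 17.2, 11.2 and 12.8 FPKM, and each PGC-1α library lay above its own control (0.33 and 0.18). Dpysl2, which binds tubulin and takes part in growth cone collapse, was lowest in Ctrl, at 13.9, 15.9, 17.0 and 15.7 FPKM. Unc50 was at 36.9, 28.8, 34.0 and 23.5 FPKM, lower in each PGC-1α library than in its control.

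**Figure D1:**
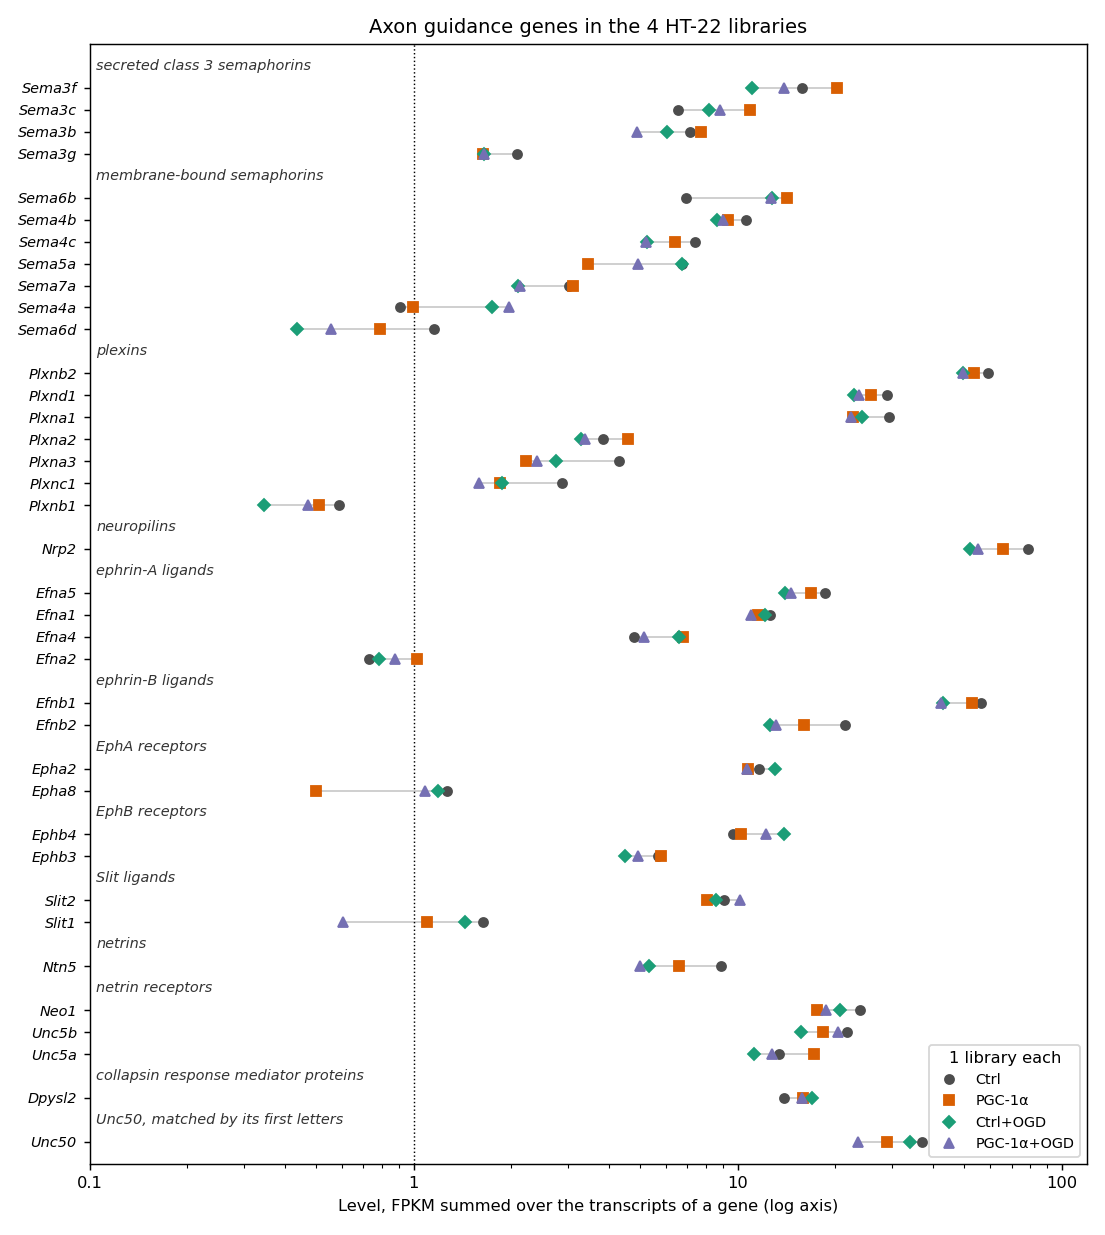
Level of each of the 37 guidance genes in the 4 libraries, in FPKM on a log axis, ordered by class and mean level. Each point is 1 library, the grey line spans the lowest to the highest, and the dotted line marks 1 FPKM. Nrp2, Plxnb2 and Efnb1 lie highest, and for most plexins and ephrins the Ctrl point is at the right end.

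The first question of the design was what PGC-1α overexpression changes in cells without OGD. Of the 34 genes, 2 were at least 1.5-fold higher in PGC-1α than in Ctrl (Sema3c and Sema6b), beside 4.91% of all 10604 compared genes. Epha8, Plxna3 and Sema5a were at least 1.5-fold lower, beside 5.63% of all genes. These are 5.88% and 8.82% of the guidance genes, which is near the background. The median log2 difference was -0.15 for the guidance genes and -0.03 for all genes.

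With OGD in both libraries, PGC-1α+OGD vs Ctrl+OGD, 0 guidance genes were higher beside 3.08% of all genes, and 1 was lower (Slit1) beside 3.82%. The median was -0.01 for the guidance genes and -0.01 for all genes. This comparison shares no library with the first one. Of the 34 genes, 7 were above 0 in both, 13 below 0 in both and 14 had opposite signs, so 58.8% had the same sign, beside 53.7% of all genes. Of the 5 genes called without OGD, Sema5a was at -0.38 with OGD, Plxna3 at -0.14, Epha8 at -0.07, Sema6b at -0.01 and Sema3c at 0.10.

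The second question was what OGD changes. In Ctrl cells, 1 guidance gene was higher (Sema6b) beside 6.2% of all genes, and 3 were lower (Efnb2, Nrp2 and Ntn5) beside 7.71%. These are 2.94% and 8.82% of the guidance genes, again at or near the background. In PGC-1α cells, 0 were higher beside 3.82% of all genes and 0 were lower beside 5.22%. Sema4a (0.57) and Sema3b (-0.56) came closest to the limit there. As a description, more guidance genes lay below 0 than in the table as a whole, with those past the limit counted in. In Ctrl+OGD vs Ctrl, 27 of 34 (79.4%) were below 0, beside 52.0% of all genes, and the median was -0.23 beside -0.02. In PGC-1α+OGD vs PGC-1α, 25 of 34 (73.5%) were below 0, beside 49.9%, and the median was -0.14 beside 0.00. The 2 OGD comparisons share no library, and 64.7% of the guidance genes had the same sign in both, beside 63.5% of all genes. Below 0 in both were 20 of 34 genes (58.8%), beside 32.7% of all genes. That count largely follows from the shares below 0 in each comparison and is no further sign of agreement. Single genes ranged from -0.72 to 0.80 in Ctrl cells and from -0.56 to 0.57 in PGC-1α cells, and without replicates none of this was tested.

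**Figure D2:**
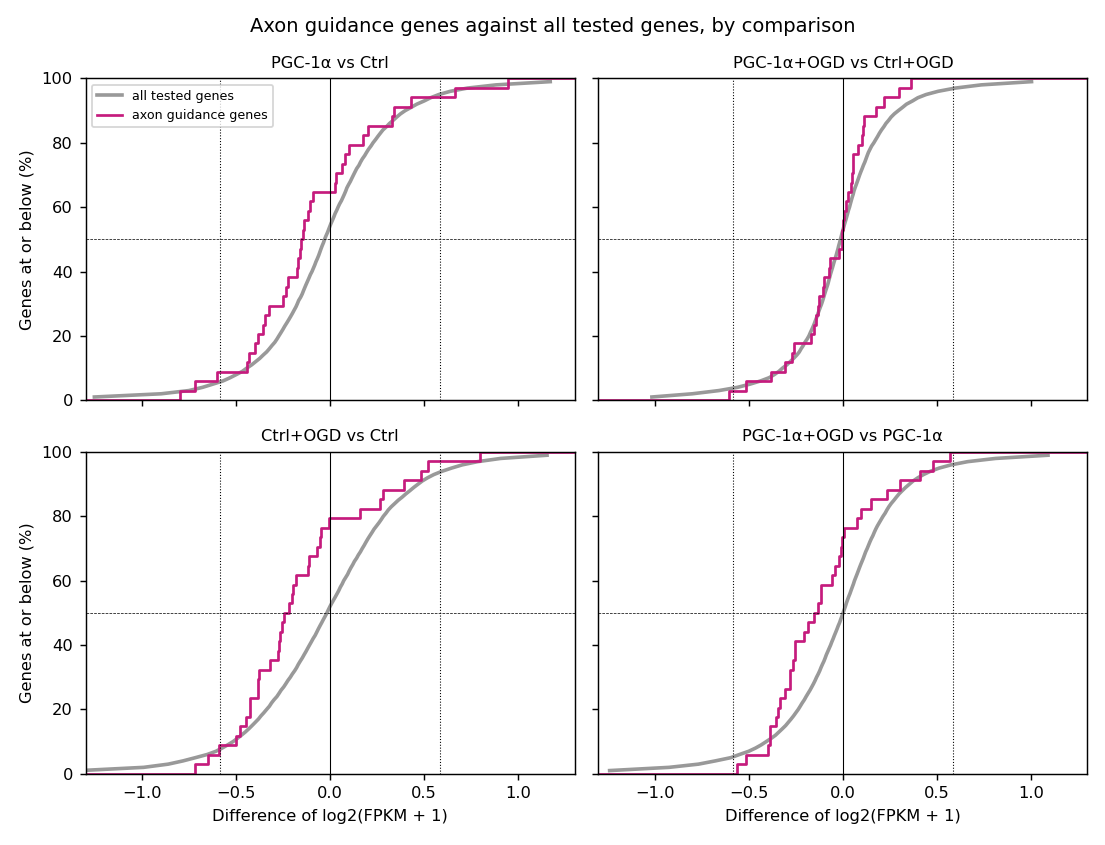
Share of genes (y axis, %) at or below a given difference of log2(FPKM + 1) (x axis) in each of the 4 comparisons, for the 34 guidance genes (pink steps) and all 10604 compared genes (grey). Dotted vertical lines mark 1.5-fold. In both OGD comparisons the pink steps run left of the grey curve around 0 and come close to it again at the 1.5-fold lines.

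The summed levels of ligands and of receptors were both lower in the OGD libraries. The summed level of the 20 ligands was 202 FPKM in Ctrl, 200 in PGC-1α, 169 in Ctrl after OGD and 169 in PGC-1α after OGD. That of the 15 receptors was 295, 258, 237 and 239 FPKM. The receptor sum was thus lower in PGC-1α than in Ctrl while the ligand sum was nearly the same. Gene by gene the 2 kinds differed less. The median of PGC-1α vs Ctrl was -0.13 for the ligands, with 11 of 18 below 0, and -0.20 for the receptors, with 10 of 14 below 0. Over single genes, Ctrl was the highest library for 20 of 34 (58.8%), beside 34.5% of all genes. PGC-1α was highest for 9 (26.5%, beside 20.5%), Ctrl+OGD for 3 (8.82%, beside 26.1%) and PGC-1α+OGD for 2 (5.88%, beside 18.9%).

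The guidance genes differ from the rest of the table in length and base composition. Their median transcript length was 4398 bases and their median GC content 56.9%, beside 2739 bases and 50.5% over all compared genes. After the trend of the differences with length and GC was removed over all genes, the median of the 34 genes was -0.13 for PGC-1α vs Ctrl, 0.01 for PGC-1α+OGD vs Ctrl+OGD, -0.19 for OGD in Ctrl cells and -0.10 for OGD in PGC-1α cells. The fibroblast marker Pdgfra was lower with OGD, at 59.1 FPKM in Ctrl and 60.3 in PGC-1α without OGD, and 37.2 and 40.0 after it. Its OGD differences were -0.65 in Ctrl cells and -0.58 in PGC-1α cells. The other fibroblast markers were near or below 0 with OGD, by unlike amounts. In Ctrl cells Col1a1 was at -0.04, Col1a2 at 0.00, Col3a1 at -0.08 and Pdgfrb at -0.46. In PGC-1α cells their OGD differences were -0.34, -0.17, -0.65 and -0.09, in the same order of genes. Col3a1 was past the 1.5-fold limit there, and Pdgfra just inside it. The summed fibroblast markers were at 513, 547, 478 and 452 FPKM. The neuronal marker Eno2 was at 1.20, 0.410, 2.81 and 1.36 FPKM, higher with OGD (0.79 and 0.74) and lower with PGC-1α (-0.65 and -0.69). Syp, the only other neuronal marker with values, was at 0.997, 0.258, 0.893 and 0.507 FPKM. Its OGD differences were -0.08 in Ctrl cells and 0.26 in PGC-1α cells, and its PGC-1α differences -0.67 without and -0.33 with OGD. Whether the marker levels have a part in those of the guidance genes was not tested.

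**Figure D3:**
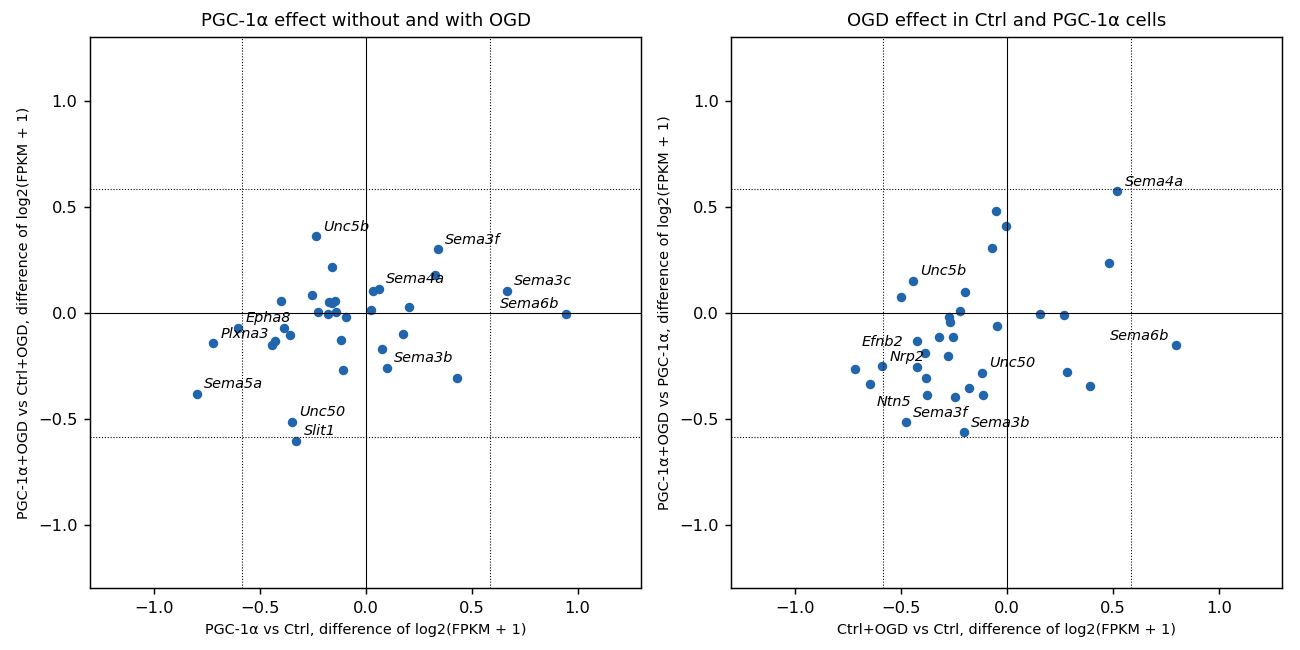
Differences of log2(FPKM + 1) of the 34 guidance genes, PGC-1α vs its control without OGD (x) and with OGD (y) on the left, and OGD vs no OGD in Ctrl cells (x) and in PGC-1α cells (y) on the right. Each point is 1 gene, dotted lines mark 1.5-fold, and the names are of genes past a line and of 5 others. On the right, 20 of 34 points lie in the lower left corner, and no point passes 1.5-fold on the y axis.

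At the level of transcripts the libraries differed more than the gene sums. Of the 34 genes, 17 had 2 or more transcripts, and in 9 of these (52.9%) the leading transcript was not the same in all 4 libraries, beside 33.5% of all 6405 such genes. The 9 were Sema3b, Sema3f, Sema4a, Sema4b, Sema4c, Slit2, Unc50, Unc5a and Unc5b. Transcripts that share most of their exons are split by estimation, and the error of that split is unknown here.

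In Unc5a it was Ctrl that stood apart. Unc5 receptors carry immunoglobulin domains and thrombospondin repeats outside the cell. Transcript ENSMUST00000026994, which holds the 168 bases shown above, was at 0.0131 FPKM in Ctrl, 12.2 in PGC-1α, 7.28 in Ctrl after OGD and 8.85 in PGC-1α after OGD. The transcripts that join the neighbouring exons without those bases summed to 13.4, 4.49, 3.54 and 3.35 FPKM. The share with the stretch was 0.0975% in Ctrl and 73.1% in PGC-1α without OGD, and 67.3% and 72.5% after it. The summed level of Unc5a in Ctrl (13.5 FPKM) lay within the range of the other libraries. Exons of Unc5a share 34 bases with Hk3 on the opposite strand.

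In Unc5b the library that stood apart was another one. The transcript with the 33 bases, ENSMUST00000077925, was at 14.6 FPKM in Ctrl, 14.5 in PGC-1α, 15.7 in Ctrl after OGD and 9.54 in PGC-1α after OGD. The transcript without them, ENSMUST00000218637, was at 7.12, 3.76, 0 and 10.9 FPKM, and so was listed at 0 in Ctrl+OGD. The share with the stretch was 67.2%, 79.5%, 100% and 46.7%. The pair also differs outside the coding sequence, with 5869 bases in the first and 3653 in the second.

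Slit2 changed its transcript in PGC-1α+OGD. ENSMUST00000173107, which holds neither of the Slit2 stretches, was at 9.06 FPKM in Ctrl and 8.02 in PGC-1α without OGD, and 8.59 and 0.488 after it. In that last library ENSMUST00000170109, with both stretches, was at 6.98 FPKM and ENSMUST00000174313, with the first alone, at 2.67 FPKM. The share with the 12-base stretch was 95.2% in PGC-1α+OGD and at most 0.00135% in the other 3, and that with the 24-base stretch was 68.9% and 0%. The pair of ENSMUST00000173107 and ENSMUST00000170109 also differs by 2238 noncoding bases held by the first alone (9960 against 7758 bases in all). The summed level of Slit2 differed by no more than 0.30 on the log2 scale between any 2 libraries compared.

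Ephb4 and Nrp2 kept the same leading transcript in all libraries. The 27 bases of Ephb4 were in 53.6% of its level in Ctrl and in 94.6% in PGC-1α, and after OGD in 88.3% and 97.4%. The 15 bases of Nrp2 were in 11.6%, 19.7%, 14.5% and 16.0%. Another coding stretch of Nrp2, of 51 bases at chr1:62812534-62812584, was counted as held only in ENSMUST00000063594. ENSMUST00000114157, which holds the 15 bases, also has bases of this stretch but was counted neither as holding nor as skipping it. ENSMUST00000114157 was at 7.69 FPKM in Ctrl, 11.8 in PGC-1α, 4.96 in Ctrl after OGD and 7.73 in PGC-1α after OGD. Without ENSMUST00000114157, the share with the stretch was 70.9% in Ctrl, 54.7% in PGC-1α, 71.3% in Ctrl after OGD and 71.8% in PGC-1α after OGD. These shares thus leave out a transcript that was highest in PGC-1α, and understate the share with the stretch. The leading Nrp2 transcript, ENSMUST00000063594, was at 50.4 FPKM in Ctrl, 29.6 in PGC-1α, 33.6 in Ctrl after OGD and 34.1 in PGC-1α after OGD.

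In Sema3b and Sema4b the transcripts that replaced each other hold the same coding sequence and differ only in noncoding exons. ENSMUST00000102529 of Sema3b was at 5.70 FPKM in Ctrl and 0 in PGC-1α without OGD, and 5.06 and 4.80 after it, whereas ENSMUST00000102530 was at 0.117, 5.61, 0.213 and 0.0396 FPKM. For Sema4b, ENSMUST00000032754 was at 6.02, 0.532, 0.678 and 6.31 FPKM and ENSMUST00000205822 at 4.61, 8.78, 7.98 and 2.69 FPKM. In Sema4b, Ctrl and PGC-1α+OGD thus resembled each other, as did PGC-1α and Ctrl+OGD. The summed level of Sema4b hid this, with 10.6, 9.32, 8.66 and 9.00 FPKM.

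**Figure D4:**
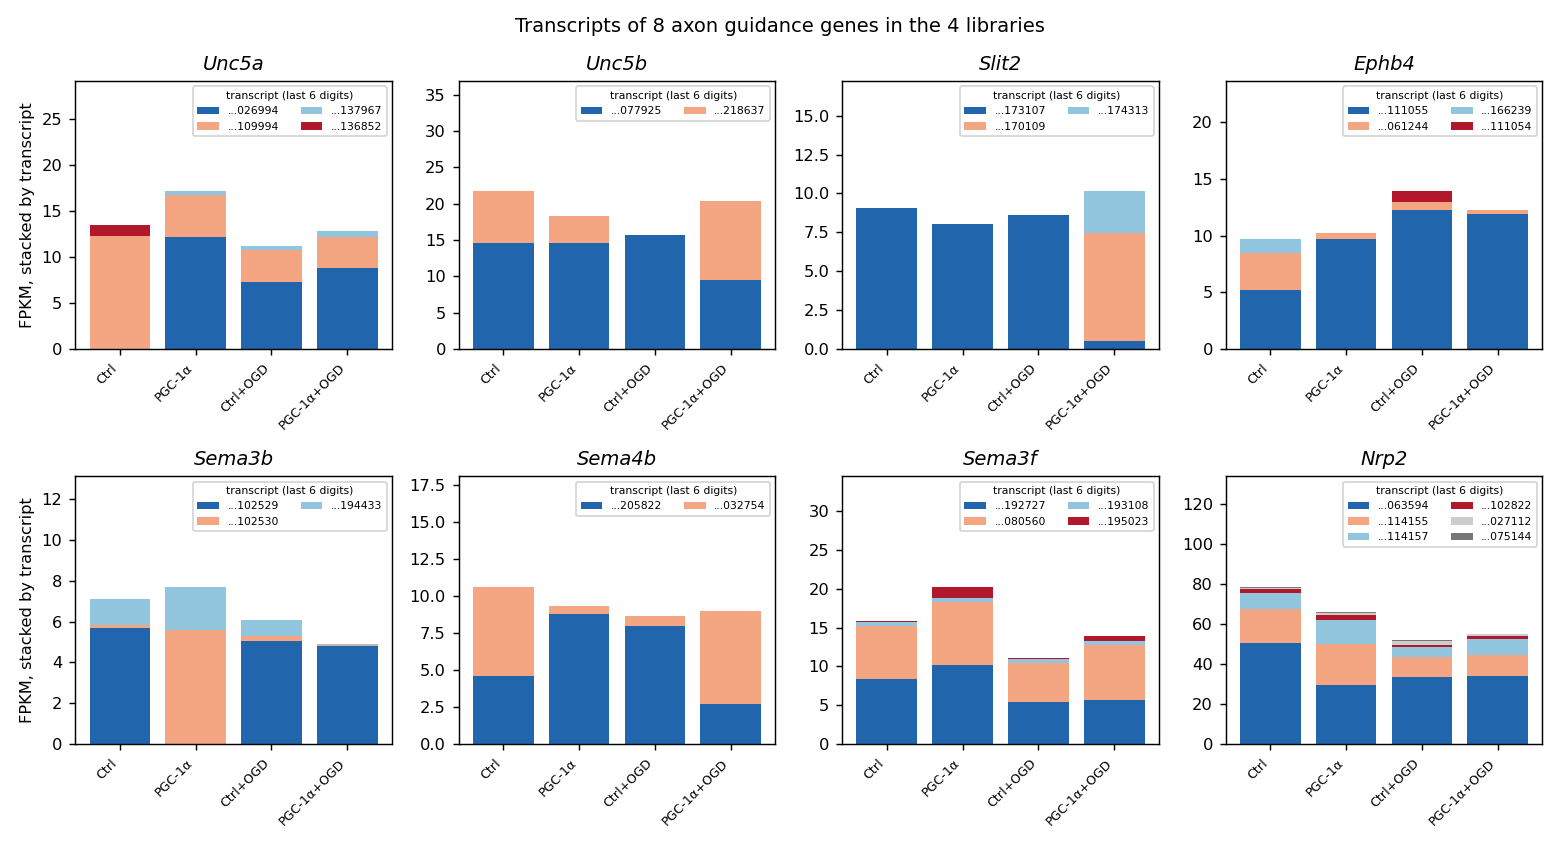
Transcript levels of 8 guidance genes in the 4 libraries, in FPKM, stacked so that a bar's height is the gene's summed level. Colours mark transcripts by the end of their identifier. The composition stands apart in Ctrl for Unc5a, in PGC-1α for Sema3b and in PGC-1α+OGD for Slit2.

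Other genes of the pathway were taken from 3 lists. Among 40 other cues, coreceptors and adhesion partners, 21 were compared. Between PGC-1α and Ctrl, 3 were higher (Met by 0.85, Ptprf by 0.93 and Cdon by 0.73 on the log2 scale) and 1 was lower (Boc), beside 4.91% and 5.63% of all genes. Cdon and Boc, coreceptors shared by netrin and hedgehog signalling, went opposite ways: Cdon was at 3.04 FPKM in Ctrl, 5.71 in PGC-1α, 2.51 in Ctrl after OGD and 4.73 in PGC-1α after OGD, and Boc at 2.92, 1.34, 2.57 and 1.78 FPKM. With OGD in both libraries 2 were higher (Flrt2 at 0.62 and Cdon at 0.71) and 2 lower (Rtn4 at -0.84 and Rtn4r at -0.60), beside 3.08% and 3.82% of all genes. Rtn4, which encodes the myelin inhibitor Nogo, was at 59.3 FPKM in Ctrl and 73.2 in PGC-1α without OGD, and 54.8 and 30.2 after it. Its receptor Rtn4r was at 5.30, 6.21, 9.77 and 6.12 FPKM. In Ctrl+OGD vs Ctrl, Met (0.75) and Rtn4r (0.77) were higher and Bdnf (-0.59) was lower, beside 6.2% and 7.71% of all genes. In PGC-1α+OGD vs PGC-1α only Rtn4 of this list was past the limit, on the lower side, beside 5.22% of all genes. Gpc1, Ptprs and Rtn4 had the highest means of the list, with Gpc1 at 62.6 to 66.6 FPKM and Ptprs at 51.9 to 63.9 FPKM. The medians of the list lay between -0.04 and 0.01.

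Cytoplasmic effectors of guidance receptors were compared for 50 of 61 genes. In Ctrl+OGD vs Ctrl, 3 were higher (Limk1, Abl1 and Crk) and 8 lower (Rnd3, Arhgef11, Srgap3, Nck1, Nck2, Mical1, Trio and Ablim1), beside 6.2% and 7.71% of all genes. Arhgef11, a guanine nucleotide exchange factor downstream of B-type plexins, was at 15.5 FPKM in Ctrl, 13.4 in PGC-1α, 2.90 in Ctrl after OGD and 13.6 in PGC-1α after OGD, low in 1 library alone. Srgap3, a Slit-Robo GTPase-activating protein, had its lowest value in the same library, at 11.4, 11.3, 4.17 and 8.75 FPKM. Ablim1, an actin-binding protein linked to netrin signalling, was at 10.6, 12.2, 3.71 and 1.60 FPKM, lower in both OGD libraries. Limk1, the kinase that inactivates cofilin, was at 8.76 FPKM in Ctrl and 16.0 in PGC-1α without OGD, and 24.5 and 22.4 after it. Abl1, a kinase downstream of Robo, was at 4.16, 19.0, 17.9 and 17.6 FPKM, low in Ctrl alone as Sema6b was. The median of the list was -0.12 in Ctrl+OGD vs Ctrl and between -0.02 and 0.01 in the other 3 comparisons.

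In PGC-1α vs Ctrl, Limk1 (0.80) and Abl1 (1.96) were higher and Rras (-0.83) and Fyn (-0.62) lower, beside 4.91% and 5.63% of all genes. In PGC-1α+OGD vs Ctrl+OGD, Arhgef11 (1.91), Srgap3 (0.92) and Nck1 (0.60) were higher and Ablim1 (-0.86) lower, beside 3.08% and 3.82% of all genes. In PGC-1α+OGD vs PGC-1α, Crk was higher (0.97) and Ablim1 lower (-2.34), beside 3.82% and 5.22%. The effectors with the highest mean were Cfl1, which encodes cofilin, at 447 to 615 FPKM, and the GTPases Rhoa at 133 to 153 FPKM and Rac1 at 116 to 127 FPKM. Proteases and heparan sulfate enzymes that act on guidance molecules were compared for 22 of 28 genes, and 0 were past the limit in PGC-1α vs Ctrl, beside 4.91% of all genes on the higher and 5.63% on the lower side. The highest means were those of Mmp14, a membrane-bound metalloprotease, at 104, 91.1, 77.2 and 70.3 FPKM, and of the syndecans Sdc4 and Sdc1, with Sdc1 at 74.2, 68.2, 71.5 and 64.0 FPKM. In Ctrl+OGD vs Ctrl, Bmp1 was higher (6.72 and 11.9 FPKM, Ctrl first) and Adam19 lower (9.27 and 4.74 FPKM), beside 6.2% and 7.71% of all genes. Sdc4 was lower in PGC-1α+OGD (55.9 FPKM) than in PGC-1α (94.3 FPKM), beside 5.22% of all genes. Psenen was higher (0.61) and Bmp1 lower (-0.67) in PGC-1α+OGD vs Ctrl+OGD, beside 3.08% and 3.82% of all genes.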

How the data were processed

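RNA-Seq was done on 1 library of HT-22 cells in each of 4 groups, taken from the sample labels. Poly(A) RNA was made into stranded paired-end libraries, and the authors aligned the reads to GRCm38 with HISAT2 2.1.0. The deposited table holds 25889 Ensembl transcripts, each with at least 0.500 in some library. The unit is not named, and the deposited values were read as FPKM from column totals of 331892 to 353381. The quantifier, annotation and filter are not given in the sources used here. At best 24.8% to 34.6% of low values lay within 0.1 of whole read steps, so reads per library stayed unknown.

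Transcripts were matched to GENCODE M21 by identifier without version (25822 matched, 67 not) and summed per symbol with Python 3.11.15, pandas 2.3.3 and numpy 2.4.6. Differences were taken of log2(FPKM + 1), a scale on which low genes differ by less than their true ratio, for the 10604 genes whose mean reached 1 FPKM. A gene counted as higher or lower at 1.5-fold on this scale. The 4 comparisons had no test, since there are no replicates. The script was tested on simulated data.

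Values are given in all libraries for guidance genes past 1.5-fold in a comparison, for the 20 with the highest mean and for those whose leading transcript changes. From the other lists, genes past 1.5-fold and the 3 with the highest mean were named. The members and lists were chosen with earlier results of these data known. Alternatives were a pseudocount of 0.1, no filter, a mean of at least 5, upper quartile or median ratio scaling, the highest transcript in place of the sum, and 2-fold. Leaving out Unc50 and removing the trend with length and GC were added after seeing the data.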

Additional observations from a re-analysis of the deposited data

Results flagged for a closer look

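No guidance gene was past 1.5-fold in opposite directions with and without OGD, or in Ctrl and PGC-1α cells. At the level of single transcripts, 3 of the 52 with a mean of at least 1 FPKM were, and for each the difference between the effects was not tested, since each group has 1 library. For ENSMUST00000032754 of Sema4b, PGC-1α differed from Ctrl by -2.20 on the log2(FPKM + 1) scale without OGD and by 2.12 with OGD, and OGD by -2.06 in Ctrl cells and 2.26 in PGC-1α cells, a difference between effects of 4.32 either way. Its partner ENSMUST00000205822 had 0.80 and -1.28, and 0.68 and -1.41, a difference of -2.09. For ENSMUST00000218637 of Unc5b the values were -0.77 and 3.57, and -3.02 and 1.32, a difference of 4.34. This transcript is listed at 0 in Ctrl+OGD, so its fitted sizes depend on the pseudocount.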

How the results depend on the processing

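No paired analysis was possible because each group has 1 library. The medians of the guidance genes kept within 0.1 of their values under every alternative tried. Counts moved as follows. With the highest transcript in place of the sum, 5 were higher and 5 lower in PGC-1α vs Ctrl. The shares of all genes rose too, there to 7.80% higher and 9.30% lower. In PGC-1α+OGD vs Ctrl+OGD 4 were lower (beside 7.23% of all genes), and in Ctrl+OGD vs Ctrl 4 were higher (beside 9.59%). For OGD in PGC-1α cells, 1 was higher and 3 lower, beside 7.46% and 8.73%. With a pseudocount of 0.1, 2 were higher in Ctrl+OGD vs Ctrl (beside 7.84%). That pseudocount gave 2 higher and 2 lower in PGC-1α+OGD vs PGC-1α, beside 5.11% and 7.23%. With a mean of at least 5, 1 was lower in PGC-1α vs Ctrl (beside 4.42%) and 0 in PGC-1α+OGD vs Ctrl+OGD (beside 2.84%). Upper quartile scaling gave 1 higher in PGC-1α+OGD vs PGC-1α, beside 4.09%. At 2-fold, 0 were higher or lower in the comparisons with calls, beside 1.02% to 1.94% of all genes. Reversals came with the highest transcript alone: Sema3b to -2.75 in PGC-1α vs Ctrl and 2.54 in PGC-1α+OGD vs PGC-1α; Sema4b to 0.80 (PGC-1α) and -1.28 (PGC-1α with OGD) against their controls and to 0.68 in Ctrl+OGD vs Ctrl; Slit2 to -2.69 and -2.60 in the 2 comparisons of PGC-1α+OGD; Unc5a to 3.03 in Ctrl+OGD vs Ctrl; and Unc5b to -0.66 in PGC-1α+OGD vs Ctrl+OGD. These follow from using 1 transcript of several. The Nrp2 difference of Ctrl+OGD from Ctrl fell inside 1.5-fold with upper quartile scaling (-0.53), median ratio scaling (-0.57), the highest transcript (-0.57) and the length and GC trend removed (-0.47). With upper quartile scaling the median of PGC-1α+OGD vs Ctrl+OGD was 0.01 and 25 of 34 genes were below 0 in Ctrl+OGD vs Ctrl. Depth is unknown, so levels near 1 FPKM, as of Epha8, Slit1 and Sema4a, have no stated error.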
